A study of Mus musculus with 5 samples.

Results

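Cnr1 and Grm8, genes for 2 inhibitory receptors of nerve terminals, were followed through RNA sequencing libraries of mouse striatum. Both were chosen because earlier results of these data showed low values in the knock-in libraries, so the difference between genotypes is described here for them and is not tested. They are 2 of 12513 genes that could be named in the count files. The libraries came from striatal homogenates of adult mice of the Adcy5R419W line (KI, n = 2 libraries, replicates 1 and 3) and of their wild-type littermates (WT, n = 3 libraries, replicates 1 to 3). KI animals carry the R419W allele of Adcy5, whose product makes most of the cAMP in striatal neurons. The labels give neither the allele's dosage nor which animal each library came from, so the spread between libraries may be in part technical. A homogenate holds every cell type of the dissected tissue together with axons from elsewhere. Adcy5 had 0 features over its exons, so neither its level nor the genotype labels could be checked.

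Cnr1 encodes the cannabinoid receptor of neurons. It sits on axon terminals, couples to Gi and Go proteins, and lowers adenylyl cyclase activity and calcium entry when endocannabinoids released by the postsynaptic cell reach it. In the striatum its RNA is made by spiny projection neurons, the GABAergic output neurons, most strongly in the dorsolateral part, and by some interneurons; cortical neurons that project to the striatum make it too, in the cortex. Grm8 encodes a group III metabotropic glutamate receptor, also coupled to Gi and Go proteins and found at presynaptic release sites, where it reduces transmitter release. Both receptors act against the Gs-coupled dopamine and adenosine receptors on the level of cAMP.

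Both genes could be read over all or nearly all of their GENCODE exon bases, which is rare in these files. RefSeq places a start of Cnr1 further upstream, at 33924264, outside the counted feature. The counts lie at GRCm38 positions although they were collected on GRCm39 features, and of 21878 protein-coding genes only 604 (2.76%) had their own feature within 1 base of their GRCm38 ends. The median count of such features was 323.7 a library, and that of the remaining protein-coding genes was 3.4. Cnr1 lies on chromosome 4 from 33924593 to 33948831 on the plus strand, and the feature labelled Cnr1 has the same ends and covers 6444 of 6444 exon bases, with no other gene there. Grm8 lies on chromosome 6 from 27275119 to 28135178 on the minus strand. The feature labelled Grm8 is offset by -1 base, covers 9883 of 9898 exon bases and also spans the microRNA gene Mir592, whose own feature held 0 counts. For both genes the file's label and the position therefore name the same gene. The counting ignored strand, so antisense transcripts would be included.

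Since both genes were low in KI in a series that concerns cAMP, the stretches just upstream of their start sites are shown, from RefSeq on GRCm38.p6, ending before the first base that RefSeq or GENCODE places in a transcript. The Cnr1 stretch is chr4:33924014-33924263 on the plus strand (250 bases, 79.2% G or C) and the Grm8 stretch is chr6:28135179-28135396 on the minus strand (218 bases, 68.3% G or C). Capitals mark the GC box GGGCGG, a site known to bind Sp factors, read on either strand.
Cnr1: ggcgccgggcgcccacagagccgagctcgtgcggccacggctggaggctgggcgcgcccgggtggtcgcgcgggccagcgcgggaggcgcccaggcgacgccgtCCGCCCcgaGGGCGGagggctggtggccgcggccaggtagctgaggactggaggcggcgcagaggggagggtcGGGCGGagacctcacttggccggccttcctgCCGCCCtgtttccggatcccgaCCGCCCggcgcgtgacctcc
Grm8: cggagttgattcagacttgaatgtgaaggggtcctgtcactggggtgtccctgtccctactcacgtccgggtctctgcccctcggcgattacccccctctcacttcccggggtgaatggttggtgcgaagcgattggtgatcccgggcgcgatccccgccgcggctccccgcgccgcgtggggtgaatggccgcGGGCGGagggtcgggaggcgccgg
The Cnr1 stretch holds 5 GC boxes and the Grm8 stretch 1. The cAMP response element TGACGTCA (CRE) and the shorter motif TGACG within it were searched on both strands of the 3 windows of 300 bases that RefSeq start sites give each gene. The full element was in 0 of the 3 windows of either gene, and 1.79% of all 32851 windows of that length hold it. The shorter motif was in 1 Grm8 window and 0 Cnr1 windows, against 20.8% of all windows. The GC box was in 1 window of each gene (35.7% of all windows), the E box CACGTG in 1 Cnr1 window (7.15%), and the TATA box TATAAA in none of the 6 (13.6%). These are letter matches and say nothing of factor binding.

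Cnr1 was abundant and low in both KI libraries. It stood at 596.9 and 729.6 CPM (the count scaled to library depth, with TMM-scaled library sizes) in KI replicates 1 and 3, against 727.8, 1853 and 1771 CPM in WT replicates 1, 2 and 3. WT replicate 1 lay inside the KI range, while WT replicates 2 and 3 were 2.49-fold above it on average, so the genotypes overlapped. The means were 663.3 ± 93.9 CPM in KI (SD, n = 2) and 1450 ± 627 CPM in WT (SD, n = 3), a log2 fold change of -1.13 (SE 0.29) or 2.19-fold lower in KI. That SE depends on the tool: the DESeq2 fit gave the same log2 fold change with an SE of 0.53. Against WT replicates 2 and 3 the KI mean was 0.366 of their mean, and against WT replicate 1 it was 0.911. In homogenates, fewer cells of a type and less RNA per cell cannot be told apart.

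Counting error was small beside these gaps. The raw counts were 4405 and 5892 in KI and 5541, 13862 and 11570 in WT. The exact Poisson 95% interval of KI replicate 3 (711.1 to 748.5 CPM) and that of WT replicate 1 (708.7 to 747.2 CPM) lay almost on top of each other, and WT replicate 3, the nearest higher library, began at 1739 CPM. The WT libraries spanned 1.35 on the log2 scale, a wider range than in 97.9% of the 7936 features with a mean of at least 10 CPM, whose median WT range was 0.36. The KI libraries spanned 0.29. The wide spread of Cnr1 was thus inside WT and came from 1 library, WT replicate 1. Over all tested features, WT replicate 1 was at least 2-fold below both other WT libraries in 8.08%.

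Grm8 was far less abundant and separated the genotypes. It stood at 16.3 and 20.2 CPM in KI replicates 1 and 3, against 29.8, 39.8 and 40.7 CPM in WT replicates 1, 2 and 3. All 3 WT libraries were above both KI libraries, with WT replicate 1 the lowest of them. The means were 18.2 ± 2.77 CPM in KI (SD, n = 2) and 36.8 ± 6.05 CPM in WT (SD, n = 3), a log2 fold change of -1.01 (SE 0.24) or 2.02-fold lower in KI. Of 13665 tested features, 11.1% also had both KI libraries below all WT libraries, and nothing is read from this since the gene was chosen on the same contrast. Counts were 120 and 163 in KI and 227, 298 and 266 in WT, so that counting error alone was 5.79% to 9.13% of a value. The interval of the higher KI library (17.2 to 23.5 CPM) ended below that of the lowest WT library (26.1 to 34.0 CPM).

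**Figure D1:**
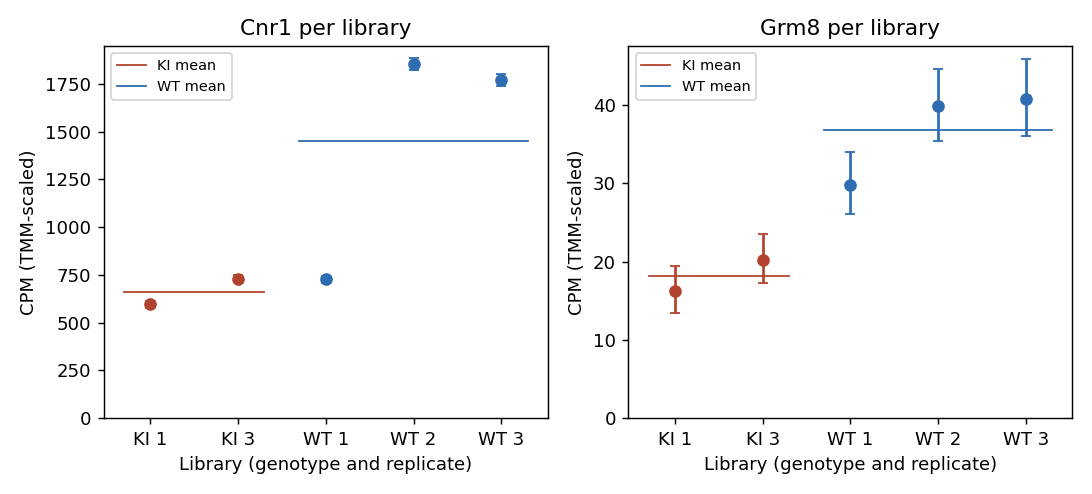
Level of Cnr1 (left) and Grm8 (right) in CPM for each library, KI in red and WT in blue; bars are exact Poisson 95% intervals and cover counting error only, horizontal lines are group means. WT replicate 1 sits at the KI level for Cnr1 (727.8 CPM) and between KI and the other WT libraries for Grm8 (29.8 CPM).

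Per kilobase of exon, Cnr1 averaged 103 CPM in KI and 225 CPM in WT, and Grm8 averaged 1.84 CPM in KI and 3.72 CPM in WT. The level of Cnr1 per kilobase was 56.3 and 55.4 times that of Grm8 in the KI libraries and 37.4, 71.3 and 66.7 times in WT replicates 1, 2 and 3. The ratio was alike in both KI libraries and lowest in WT replicate 1, where Cnr1 was further below the other WT libraries than Grm8 was. By mean CPM only 0.593% of tested features were higher than Cnr1, against 38.0% for Grm8.

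The places of both fold changes in the whole table are given as a description only, since both genes were chosen on this contrast. A fitted fold at least as low as 2-fold down was found for 4.54% of the tested features, and 3.7% had a lower value than Cnr1 and 4.46% a lower one than Grm8. Among the 338 tested genes that were read over at least 90% of their own exons with both ends in place, the median log2 fold change was -0.04, Cnr1 was the 7th lowest and Grm8 the 9th lowest. Of the 290 of these with a mean of at least 10 CPM, they were the 2nd and 3rd lowest. Past the edgeR threshold among the 338 genes were 2, and neither was a receptor gene: Necab1 fell (log2 fold change -0.86, SE 0.11, adjusted p = 0.006394) and Peg10 rose (2.47, SE 0.14, adjusted p = 1.433e-06). Necab1 lost the call without WT replicate 2, WT replicate 3 or KI replicate 3 (adjusted p = 0.09373, 0.1706 and 0.1414), while Peg10 passed in all 11 alternatives run for it.

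The fold changes of both genes kept their sign in all 12 alternatives, which left out each library in turn or changed the scaling, filter, tool, block or a covariate. They ranged from -1.44 to -0.53 for Cnr1 and from -1.17 to -0.87 for Grm8. The lowest Cnr1 value came without WT replicate 1 (-1.44, SE 0.09). The one nearest 0 came with the level of Slc17a7, a gene of cortical projection neurons, as a covariate (-0.53, SE 0.43, against -0.93, SE 0.37, for Grm8).

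The genes around both receptors had fold changes nearer to 0. Within 1 Mb of Cnr1, 16 protein-coding genes were tested, each read over 100% of its exon bases, and their median log2 fold change was -0.02. The nearest, Rngtt, which caps messenger RNA, lies 422 kb away and stood at 128.5 and 136.8 CPM in KI and 122.2, 134.5 and 140.0 CPM in WT. The lowest was Rragd, a GTPase gene of the amino acid sensing pathway, at 834.8 and 866.2 CPM in KI and 1050, 1352 and 1322 CPM in WT (log2 fold change -0.55, SE 0.12, edgeR adjusted p = 0.09273, and 0.000321 to 0.645 over 11 alternatives, of which it passed 5, among them DESeq2, limma voom and the fit without WT replicate 1). Within 1 Mb of Grm8, 4 such genes were tested, with a median of 0.04. The nearest, Zfp800, a zinc finger gene 105 kb away, stood at 57.9 and 77.9 CPM in KI and 54.5, 55.1 and 54.3 CPM in WT. None of these 20 neighbours passed the edgeR test, where 0.102% of all tested features did. An unadjusted edgeR p under 0.05 was found for 2 of the 16 around Cnr1 and 0 of the 4 around Grm8. Over all tested features it was found for 874 of 13665. The difference between each receptor gene and its neighbours was not tested.

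**Figure D2:**
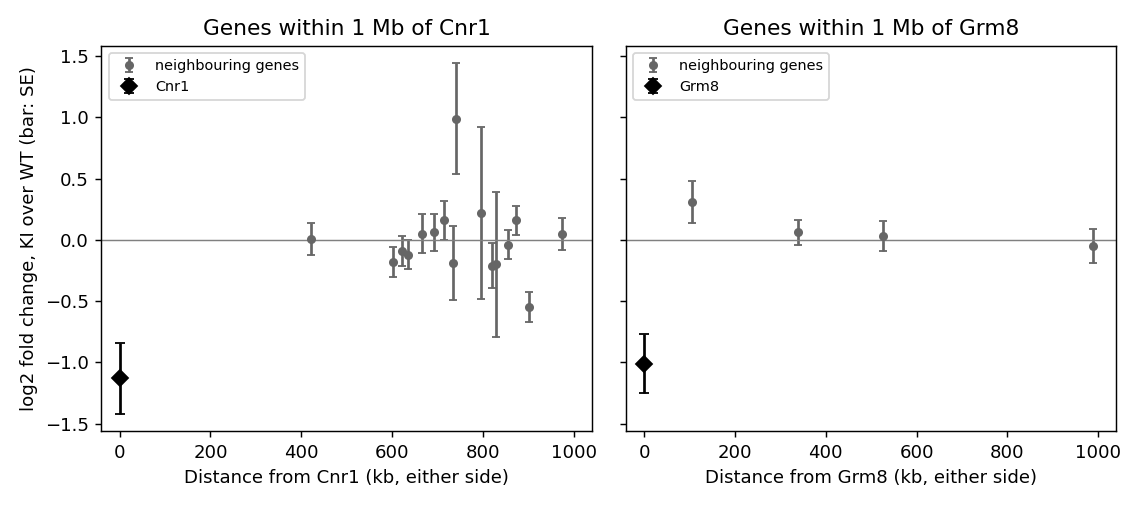
Log2 fold change (KI over WT, bars are standard errors) of Cnr1 (left) and Grm8 (right), drawn as diamonds at 0 kb, and of the tested protein-coding genes within 1 Mb, by distance to either side. The neighbours of Cnr1 lie between -0.55 and 0.99 and those of Grm8 between -0.05 and 0.31, above the receptor gene in both panels.

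None of the measured endocannabinoid genes passed the edgeR test. Of 19 genes that make, break down or bind the ligands of Cnr1, 7 had a feature and 5 were tested: 1 was higher and 4 were lower in KI, 0 had an unadjusted p under 0.05, and DESeq2 and limma voom also called 0. Their median log2 fold change was -0.19, against 0 over all features. Calls were rare over all tested features too: 0.102% by edgeR, 130 of 10221 by DESeq2 and 52 of 13665 by limma voom. An unadjusted edgeR p under 0.05 was found for 874 of 13665. With 5 genes tested, 0 calls therefore says little about this list. Dagla, the main synthase of the endocannabinoid 2-arachidonoylglycerol in adult brain, stood at 14.1 and 20.7 CPM in KI and 28.6, 29.9 and 15.3 CPM in WT (-0.50, SE 0.32). Its relative Daglb had a log2 fold change of -0.19 (SE 0.24). Abhd12, a hydrolase of the same lipid, was below all WT libraries in both KI libraries, as were 11.1% of all tested features. Its values were 216.7 and 201.0 CPM against 247.1, 244.2 and 244.4 CPM (-0.23, SE 0.11, edgeR adjusted p = 0.8174). Mgll, the lipase that clears most of this lipid, stood at 135.2 and 107.9 CPM in KI and 115.6, 112.5 and 128.6 CPM in WT. Pla2g4e, which can start anandamide synthesis, had a value of -0.16 (SE 0.68). These genes were read over only 3.85% to 9.67% of their exon bases, and Faah and Trpv1 were under the count filter.

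Nor did the relatives and partners of Grm8 pass. Of 14 metabotropic glutamate receptor and partner genes, 7 had a feature and 6 were tested: 4 were higher and 2 lower in KI, 0 had an unadjusted p under 0.05, and DESeq2 and limma voom called 0. The median was 0.18. Over all tested features edgeR called 0.102%, DESeq2 130 of 10221 and limma voom 52 of 13665, and 874 of 13665 had an unadjusted edgeR p under 0.05. With 6 genes tested, 0 calls says little about this list either. Grm4, another group III receptor, stood at 6.91 and 16.6 CPM in KI and 5.78, 15.8 and 9.34 CPM in WT, with no separation of the genotypes. Elfn2, an adhesion protein that binds group III receptors across the synapse, was above all WT libraries in both KI libraries. So were 11.3% of all tested features. Its values were 165.7 and 154.0 CPM against 122.3, 153.3 and 120.0 CPM (0.28, SE 0.14, edgeR adjusted p = 0.8329). The scaffold genes Homer1, Homer2 and Grip1 had log2 fold changes of 0.16, -0.85 and 0.22 (SE 0.17, 0.47 and 0.37). Coverage was 1.97% to 7.75% of exon bases. The feature over Grm6 held 0 counts in all libraries, which allows up to 0.379 to 0.455 CPM.

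**Figure D3:**
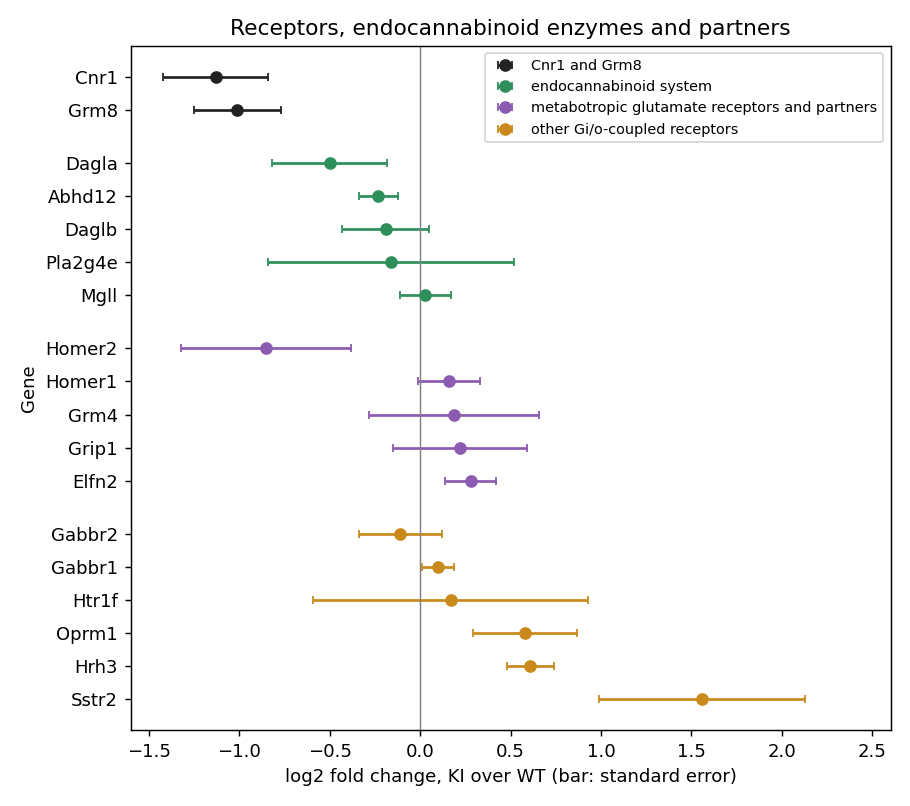
Log2 fold change (KI over WT, bars are standard errors) of Cnr1 and Grm8 at the top, then of endocannabinoid genes, metabotropic glutamate receptors with their partners, and other Gi/o-coupled receptors. Cnr1 (-1.13) and Grm8 (-1.01) are the lowest points, and 5 of the 6 other Gi/o-coupled receptors are above 0.

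Among other receptors coupled to Gi or Go, 6 of 30 had a feature and all 6 were tested. In KI 5 were higher and 1 was lower, the median log2 fold change was 0.38, and 4 had both KI libraries above all WT libraries, as 11.3% of all tested features did. None passed the edgeR test, and 2 had an unadjusted p under 0.05, as 874 of all 13665 tested features did. Hrh3, the presynaptic histamine receptor, stood at 127.0 and 126.6 CPM in KI and 79.6, 89.2 and 80.7 CPM in WT (0.61, SE 0.13, edgeR adjusted p = 0.1046). The DESeq2 Wald test called it (adjusted p = 0.01462), and over 11 alternatives its adjusted p ranged from 0.01342 to 0.6124. Sstr2, a somatostatin receptor, had the largest value but few reads, at 8.67 and 9.78 CPM in KI and 4.33, 3.88 and 1.07 CPM in WT (1.56, SE 0.57, adjusted p = 0.5639). Gabbr2, a subunit of the GABA-B receptor and the only one of the 6 read over 100% of its exon bases, stood at 773.5 and 480.5 CPM in KI and 942.4, 589.9 and 498.4 CPM in WT. Its partner subunit Gabbr1 had a value of 0.10 (SE 0.09) and Oprm1, the mu opioid receptor, 0.58 (SE 0.29).

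Genes that work with or against these receptors gave no edgeR call. Of 19 Gs-coupled receptor genes 5 were tested, 3 higher and 2 lower in KI with a median of 0.08, led by Htr6 (-0.54, SE 0.29) and Adcyap1r1 (0.29, SE 0.18). Of 23 genes for Gi/o proteins and their presynaptic effectors 14 were tested, 7 higher and 7 lower with a median of 0. Gnb4, a G protein beta subunit, stood at 24.0 and 45.7 CPM in KI and 19.7, 12.4 and 13.3 CPM in WT (1.20, SE 0.31, edgeR adjusted p = 0.2071, and 0.02969 without WT replicate 1), and Cacna2d2, a calcium channel subunit, at a value of 0.69 (SE 0.25). Of 37 genes of the release machinery 18 were tested, 9 higher and 9 lower with a median of -0.02. Unc13c, a vesicle priming factor, had a value of -0.55 (SE 0.20). Unadjusted p values under 0.05 were found for 0, 2 and 1 of these lists' genes, against 874 of all 13665 tested features. DESeq2 and limma voom called none of these lists' genes. Their exon coverage was 0.041% to 23.3%, 1.2% to 32.4% and 0.6% to 100%.

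The genes whose levels over the 5 libraries were most like those of each receptor gene were sought among 3849 protein-coding genes with a mean of at least 10 CPM, by the root mean square difference of mean-centred log2 CPM. Closest to Cnr1 were Strn (0.235), Mme (0.242), Rgs9 (0.265), Rasgrp2 (0.265) and Camk2n1 (0.273), where the median gene was at 0.72. Strn, a scaffold gene named for the striatum, had the same order as Cnr1, at 40.8 and 47.1 CPM in KI and 46.6, 96.1 and 78.8 CPM in WT, with WT replicate 1 inside the KI range. Mme, the enkephalin-degrading enzyme neprilysin, had WT replicate 1 at 11.9 CPM and the KI libraries at 10.4 and 16.8 CPM. Rgs9, a striatal regulator of G protein signalling, was instead at 177.2 and 223.0 CPM in KI and 300.9, 506.8 and 419.1 CPM in WT, with no overlap (-1.03, SE 0.19, edgeR adjusted p = 0.06338). Rasgrp2, an exchange factor for Rap, and Camk2n1, an inhibitor of CaMKII, also separated the genotypes, with log2 fold changes of -0.98 and -1.18 (SE 0.22 and 0.28). These 5 genes were read over 1.54% to 6.68% of their exon bases, and none passed the edgeR test over all libraries. All of them were selected for a profile that is low in KI and lower in WT replicate 1 than in the other WT libraries, so their direction, and any call made without that library, follow from the selection.

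Closest to Grm8 were Kcnh3 (0.070), Rgs9 (0.118), Cd2ap (0.125), Shroom2 (0.126) and Kcnj4 (0.136), with the median gene at 0.55. The voltage-gated potassium channel gene Kcnh3 fell, to 42.4 and 51.8 CPM in KI against 81.6, 112.1 and 118.2 CPM in WT (-1.14, SE 0.19, edgeR adjusted p = 0.0392). Kcnj4, an inward rectifier gene, fell as well, to 179.4 and 204.8 CPM in KI against 309.1, 345.8 and 354.0 CPM in WT (-0.81, SE 0.12, adjusted p = 0.02619). Both lost the call when any 1 library other than WT replicate 1 was left out, with adjusted p from 0.1414 to 0.4191, and Kcnh3 also with library totals in place of TMM (adjusted p = 0.05606). The direction of these genes too, and any call among them, follow from their likeness to Grm8, which was chosen as low in KI. Nothing is therefore read from the calls of Kcnh3 and Kcnj4, where edgeR called 0.102% of all tested features. Cd2ap and Shroom2 had values of -0.81 and -0.77 (SE 0.36 and 0.26) but were read over 24 and 47 exon bases. Kcnh3 and Kcnj4 were read over 154 and 192 exon bases (2.68% and 8.92%). Rgs9 was on both lists. Cnr1 and Grm8 themselves were 0.325 apart, which put Grm8 at rank 21 for Cnr1 and Cnr1 at rank 131 for Grm8.

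**Figure D4:**
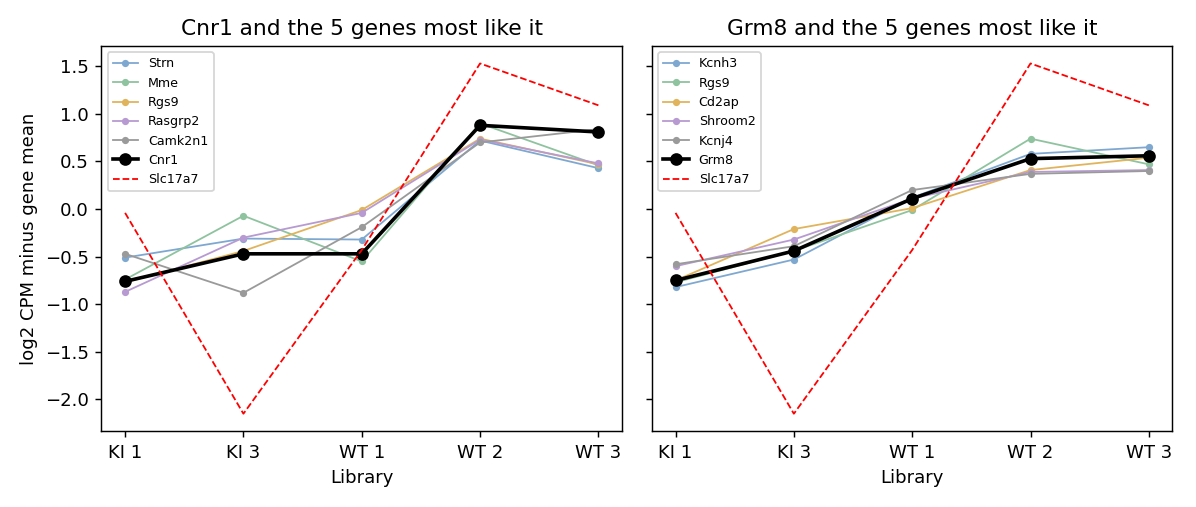
Log2 CPM minus the gene's mean over 5 libraries for Cnr1 (left) and Grm8 (right) in black, the 5 genes most like each in colour and Slc17a7 dashed; lines join the values of 1 gene and the libraries have no order within a genotype. WT replicate 1 is at -0.47 for Cnr1 and at 0.11 for Grm8, and Slc17a7 has its lowest point in KI replicate 3 (-2.15).

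Markers of other cells that the dissection could hold also differed between libraries. The 6 measured of 15 cortical glutamatergic markers summed to 52.0 to 145.0 CPM in KI and 121.6 to 354.8 CPM in WT. This sum was high in WT replicates 2 and 3 like Cnr1, a rise of Slc17a7 and Neurod2. Some of the other markers were instead highest in WT replicate 1, so the list as a whole did not follow Cnr1. Slc17a7, the vesicular glutamate transporter of cortical neurons, stood at 96.1 and 22.0 CPM in KI and 73.6, 286.7 and 210.3 CPM in WT. Neurod2, a transcription factor of cortical neurons, stood at 6.64 and 1.73 CPM in KI and 1.58, 32.1 and 30.0 CPM in WT. Of these markers 2 were higher and 4 lower in KI, and 0 passed the edgeR, DESeq2 or limma voom test. An unadjusted p under 0.05 was found for 2 (Slc17a7 and Neurod2), against 874 of all 13665 tested features. Without WT replicate 1 Slc17a7 and Neurod2 did pass (edgeR adjusted p = 0.01 and 0.002096). Slc17a7 was 0.878 from Cnr1 in the measure of likeness (rank 3384) and 1.00 from Grm8 (rank 3802). That measure counts the size of the deviations as well as their order over libraries. Those of Slc17a7 ran from -2.15 to 1.53 and those of Cnr1 from -0.76 to 0.88, so these ranks do not compare the order alone. The 7 measured of 8 thalamic markers summed to 72.8 to 212.9 CPM in KI and 79.6 to 399.2 CPM in WT, highest in WT replicate 1 (Tnnt1 -1.71, SE 0.64, and Lef1 -1.27, SE 0.76). The tested cortical markers were read over 0.49% to 60.2% of their exon bases and the thalamic ones over 2.8% to 19.1%. The part of cortical or thalamic tissue in the Cnr1 and Grm8 values was not tested beyond the Slc17a7 covariate above.

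Spiny projection neuron markers were present throughout. The 9 measured of 20 summed to 7907 to 8869 CPM in KI and 9197 to 12100 CPM in WT, with WT replicate 1 the lowest WT library, as for Cnr1 and Grm8. Penk alone made up 66.6% to 67.0% of the sum in KI and 67.4% to 73.1% in WT. Without it, a split added after seeing the data, the other 8 summed to 2611 and 2966 CPM in KI and 2475, 3834 and 3555 CPM in WT, so that WT replicate 1 lay below both KI libraries and the genotypes overlapped. Of 8 tested, 3 were higher in KI and 5 lower, and the median log2 fold change was -0.19. None passed the edgeR test and 3 had an unadjusted p under 0.05, as 874 of all 13665 tested features did. DESeq2 and limma voom each called 2 lower, Rgs9 and Penk, where they called 130 of 10221 and 52 of 13665 features. Without WT replicate 1 edgeR called 3 lower, with 161 of 13221 features called. The tested markers were read over 3.4% to 100% of their exon bases. Penk, the enkephalin gene, stood at 5296 and 5903 CPM in KI and 6722, 8271 and 7355 CPM in WT (-0.41, SE 0.09, edgeR adjusted p = 0.09917). Direct pathway neurons express the tachykinin gene Tac1, which stood at 1030 and 985.5 CPM in KI and 746.3, 1007 and 992.3 CPM in WT.

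Genes known to be graded across the striatum were also read, since Cnr1 is. Of 4 dorsolateral genes 2 were tested, Rgs9 as above and Reln (reelin), at 55.3 and 66.9 CPM in KI and 30.2, 44.1 and 35.5 CPM in WT (0.74, SE 0.20, edgeR adjusted p = 0.2583). Of 6 ventromedial genes 2 were tested. Wfs1, which encodes wolframin of the endoplasmic reticulum, rose (1.01, SE 0.14, edgeR adjusted p = 0.01081), at 424.8 and 349.1 CPM in KI and 209.5, 161.9 and 204.5 CPM in WT. It lost the call without WT replicate 2, WT replicate 3 or KI replicate 1 (adjusted p = 0.09511, 0.1706 and 0.08006). Crym, which encodes a thyroid hormone binding protein, stood at 125.9 and 148.8 CPM in KI and 155.5, 124.4 and 132.7 CPM in WT. Rgs9, Reln, Wfs1 and Crym were read over 6.68%, 1.69%, 12.3% and 16.5% of their exon bases. The part of dissection position in the Cnr1 values was not tested.

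Markers of other cell types were read in the same way, and the widest gap was that of the choroid plexus in 1 KI library. The 7 measured of 16 GABAergic interneuron markers summed to 429.0 to 464.5 CPM in KI and 391.3 to 451.0 CPM in WT (median log2 fold change 0.12; Gad1 0.09, SE 0.13), and Adarb2 was under the filter. Sums in KI and WT were 124.7 to 131.3 and 133.4 to 157.7 CPM for 3 astrocyte markers (Slc1a3 -0.17, SE 0.17; Aldh1l1 -0.19, SE 0.21). For 4 oligodendrocyte markers they were 1470 to 1522 CPM in KI and 1561 to 2071 CPM in WT (Cnp -0.29, SE 0.13; Mag -0.29, SE 0.14). For 2 microglial markers they were 17.2 to 21.2 CPM in KI and 21.4 to 28.6 CPM in WT (Aif1 -0.35, SE 0.29; Trem2 -0.62, SE 0.51). For 3 endothelial markers they were 126.8 to 131.8 CPM in KI and 106.0 to 137.3 CPM in WT (Tek -0.70, SE 0.36; Slc2a1 0.21, SE 0.16). For 2 choroid plexus markers, nearly all of it Ttr, the sum was 2096 CPM in KI replicate 3 and 28.1 CPM in KI replicate 1, against 42.4 to 61.8 CPM in WT. No marker of these lists passed the edgeR, DESeq2 or limma voom test. An unadjusted p under 0.05 was found for 2 (Cnp and Ttr), against 874 of all 13665 tested features. Ttr was read over 73.2% of its exon bases and the other tested markers over 0.72% to 23.4%. Without KI replicate 1 the edgeR test called Ttr (adjusted p = 1.585e-10).

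**Figure D5:**
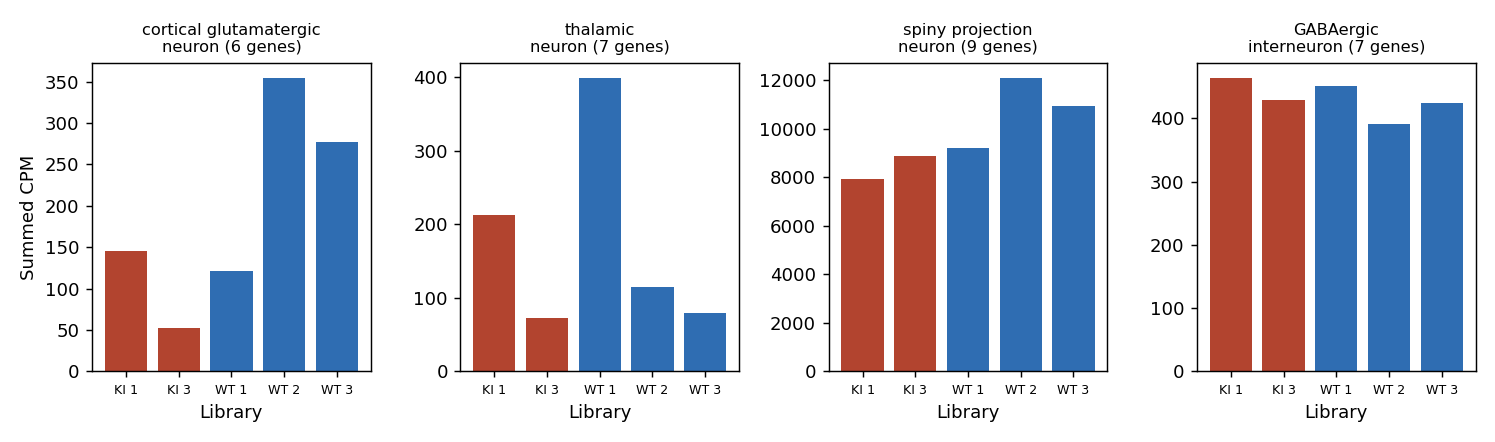
Summed CPM of the measured marker genes of 4 neuron classes in each library, KI in red and WT in blue. The cortical sum is highest in WT replicates 2 and 3 (354.8 and 277.0 CPM), a rise of Slc17a7 and Neurod2. The thalamic sum is highest in WT replicate 1 (399.2 CPM). The spiny projection neuron sum, most of it Penk, is lower in both KI libraries than in the 3 WT libraries. Without Penk that sum is not (2611 and 2966 CPM in KI against 2475 CPM in WT replicate 1).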

How the data were processed

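Striatal homogenates of adult KI (n = 2) and WT (n = 3) mice were sequenced from a ligation-based stranded mRNA library, per the labels' protocols. The authors deposited raw counts, 1 per read pair and feature, from featureCounts 2.0.1 and the GRCm39 annotation of Ensembl release 103 (per the file headers). Pairs were counted once for every feature they overlapped and strand was ignored, per the same headers. Which aligner was used is not given in the sources used here. Libraries held 6595105 to 7910584 counts, so that 0 counts allows 0.379 to 0.455 CPM (3 counts, counting error only).

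Because the counts lie at GRCm38 positions, features were laid over GENCODE M21 exons by position with bedtools 2.31.1. A feature took the name of the gene alone there or of the only protein-coding one. This named 16346 of 53700 features, with 57.63% of the counts. Each gene was read by the feature with the largest exon overlap, so most levels are those of a covered part.

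Features were filtered with filterByExpr, scaled by TMM and fitted across all 13665 features with the quasi-likelihood test of edgeR 4.0.16 in R 4.3.3 (Benjamini-Hochberg threshold 0.05; common biological coefficient of variation 29.8%). A standard error is the log2 fold change divided by the root of its F. Alternatives were DESeq2 1.42.0, limma voom 3.58.1, other scalings, no filter, a replicate block, each library left out, and for the receptor genes the Slc17a7 level as a covariate. Likeness used a prior count of 2. Genes named are Cnr1, Grm8, all tested endocannabinoid and metabotropic glutamate genes, from each other list the genes past the threshold or the 2 with the smallest p, and the 5 genes most like each receptor gene; a few genes that this rule takes are not reported here. Neighbouring genes, genes in place, Gabbr1, Gabbr2, Oprm1, Tac1 and Crym were picked with their values known. The 2 receptor genes, the lists and the tests were chosen with earlier results of these data known.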

Additional observations from a re-analysis of the deposited data

How the results depend on the processing

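The log2 fold changes stayed below 0 in all 12 alternatives, from -1.44 to -0.53 for Cnr1 and from -1.17 to -0.87 for Grm8. The main fit gave -1.13 and -1.01. The pooled SD of log2 CPM between libraries of a genotype was 0.63 for Cnr1 and 0.24 for Grm8. A second feature over either gene could not serve as an alternative, since Cnr1 has none and that of Grm8 held 0 counts. Counts of calls moved more, and the cause was not tested. Against 14 changed features (6 higher and 8 lower in KI), DESeq2 gave 130 (of 10221 tested), limma voom 52 and no low-count filter 183 (of 24598 tested). The replicate block gave 154 and the Slc17a7 covariate, which was added after seeing the data, gave 2. Leaving out 1 library gave 2 to 161 (161 without WT replicate 1, 3 and 2 without WT replicates 2 and 3, 30 and 6 without KI replicates 1 and 3). Of 97 list genes tested 1 changed (Wfs1), against 4 with DESeq2, 3 with limma voom, 10 without a filter, 6 with the block, 0 to 7 without 1 library, and 0 of the 7 read over at least 50% of their exon bases, a limit added later.

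With the replicate block Cnr1 stood at -0.78 (SE 0.13) and Grm8 at -0.94 (SE 0.25). WT replicate 2 shares its number with no KI library, so this contrast rests on replicates 1 and 3. For Cnr1 these pairs differed widely, at 596.9 CPM in KI against 727.8 CPM in WT and 729.6 against 1771 CPM. The SE of 0.13 does not show that gap between pairs. Deviations of same-numbered libraries correlated at 0.245 for number 1 and 0.188 for number 3. Those of the 2 KI libraries mirror each other, so KI replicate 3 gave -0.245 with WT replicate 1. Likewise KI replicate 1 gave -0.188 with WT replicate 3. With only 2 pairs and no label that ties them, the libraries share a number only. Where 1 KI library is left out, the other is taken to vary as WT does. Of 583 values of 53 other named genes, 510 kept their side of the threshold, 38 newly passed, 15 lost the call and 20 changed sign. Apart from Ttr (-0.92 to 5.3 without 1 library, against 4.32, and negative without KI replicate 3), the sign changes were in genes with main values from -0.19 to 0.19 that passed in no alternative. They were Mgll with the block (-0.01), Crym with library totals (0.05) and with limma voom and no filter (both 0) and, over the fits without 1 library, Mgll (-0.14 to 0.19), Daglb (-0.51 to 0.07), Pla2g4e (-1.16 to 0.41), Homer1 (-0.15 to 0.41), Grm4 (-0.57 to 0.69), Aldh1l1 (-0.51 to 0.08), Rngtt (-0.04 to 0.05), Gabbr2 (-0.50 to 0.21) and Crym (-0.13 to 0.11). Depth limits Grm8, whose counts of 120 to 298 leave a counting error of 5.79% to 9.13%, more than Cnr1, at 0.849% to 1.51%.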
